A study of Mus musculus with 22 samples.

Results

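Interferon-stimulated genes are the genes that cells switch on when interferons reach them. A set of 41 of them was taken by gene symbol from the deposited expression table, which holds 54514 gene entries after lines of one symbol are summed. All 41 have a line in the table. They comprise 4 genes of interferon signalling and transcription, 7 of RNA and DNA sensing, 15 antiviral effectors, 5 of the ISG15 and ADP-ribosylation systems, 2 of antigen presentation, 2 guanylate-binding proteins and 6 others. The values are TPM, transcript abundances that the authors deposited for each gene and library. TPM is scaled by transcript length, so levels of different genes can be compared, and it keeps no read depth. Of the 41, 38 had a mean of at least 1 TPM over the 16 clone libraries and 37 over the 6 wild-type libraries, and these were tested. Zbp1, Mx1 and Gbp3 fell under that limit in both sets and Sp100 in the wild-type set.

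The cells were mpkCCD, an immortal mouse line derived from kidney cortical collecting duct, and the series title concerns cell-to-cell variation of the water channel aquaporin-2 seen through a green fluorescent protein (GFP) reporter. Unsorted wild-type (WT) cells, without the reporter, gave 3 libraries with no dDAVP and 3 with dDAVP, that is desmopressin, which activates vasopressin V2 receptors. The reporter clones C1, C11, C43 and C50 were all given dDAVP and parted into GFP-negative and GFP-positive cells, with 2 libraries for each fraction of each clone. All 22 libraries came from cells grown on permeable supports with 50 nM dexamethasone, a glucocorticoid, in the medium throughout. The labels list more than 1 dose and duration of dDAVP and do not say which a given library received. Each reporter clone is a single line, and the labels do not say whether the replicates were separate cultures, so the p-values measure only the spread between these libraries. No agent in the labels is an interferon, so the values describe the level of these genes with no labelled interferon added.

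Type I and type III interferons bind receptors that act through the kinases Jak1 and Tyk2 to form the complex ISGF3, which holds Stat2 and Irf9 and binds the interferon-stimulated response element (ISRE) in target promoters. Interferon-gamma acts at the gamma-activated site (GAS), and Irf1 and Irf7 extend the response. Many of the genes, such as the RNA sensors, Stat2, Irf7 and Irf9, are themselves parts of the pathway, and Usp18 dampens it at the receptor. Many keep a low basal transcription without added interferon.

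The promoters were read first, because the ISRE is what ties such genes to one pathway. RefSeq promoters of build GRCm38.p6, 250 bases before to 50 after the start, were available for 32 of the 41 genes. The ISRE core (the letters GAAA, any 2 bases and GAAA again), searched on both strands with overlapping matches counted, was found in 14 of these 32 (43.8%) and in 3.99% of 27025 genes with a promoter in the same table. The GAS letters TTCNNNGAA, also on both strands, were found in 8 of 32 (25.0%) and in 9.55% of all genes. A match describes letters in a window and is not a measured binding site. The stretches below run from 15 bases before the first match to 15 after the last, 5′ to 3′ on the gene's strand, and capitals mark the ISRE matches (in Isg20 the GAS match). They were picked among genes with a match, after the values were seen, to show the IFIT genes and others described below. Sp100, Ifi44 and Lgals3bp, which had the widest ratios between clone means among the genes tested, hold neither match in their promoters, and none of these is shown.
Isg15: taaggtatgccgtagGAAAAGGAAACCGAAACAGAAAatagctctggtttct
Ifit1: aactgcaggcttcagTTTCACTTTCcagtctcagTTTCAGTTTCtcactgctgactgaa
Ifit3: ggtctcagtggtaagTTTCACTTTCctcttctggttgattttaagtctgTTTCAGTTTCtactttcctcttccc
Ifit3b: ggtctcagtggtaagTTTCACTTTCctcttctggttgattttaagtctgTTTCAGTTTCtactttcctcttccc
Rsad2: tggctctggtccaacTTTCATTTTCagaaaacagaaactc
Oas1a: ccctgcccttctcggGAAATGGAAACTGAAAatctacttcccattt
Gbp2: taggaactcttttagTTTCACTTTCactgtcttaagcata
Bst2: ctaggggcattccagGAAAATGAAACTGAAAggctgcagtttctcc
Isg20: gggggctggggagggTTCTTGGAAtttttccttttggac
The stretches lie at chr4:156200860-156200911, minus strand (Isg15), chr19:34640770-34640828, plus strand (Ifit1), chr19:34583358-34583431, plus strand (Ifit3), chr19:34607754-34607827, plus strand (Ifit3b) and chr12:26456548-26456587, minus strand (Rsad2). Those of Oas1a, Gbp2, Bst2 and Isg20 lie at chr5:120907515-120907560, minus strand, chr3:142620589-142620628, plus strand, chr8:71537572-71537617, minus strand and chr7:78913336-78913374, plus strand. Isg15 holds 3 overlapping matches, and Oas1a and Bst2 hold 2 overlapping ones. Ifit1, Ifit3 and Ifit3b each hold 2 separate matches, and the 74 bases shown for Ifit3 and Ifit3b are the same letter for letter. Other genes with an ISRE match were Stat2, Ddx58, Ifih1, Eif2ak2, B2m and Gbp3, and other genes with a GAS match were Irf1, Eif2ak2, Adar, Ifit2, Oas1a, Bst2 and Ifi35. No promoter was read for Zbp1, Parp9, Dhx58, Ifi27, Parp14, Usp18, Mx1, Mx2 and Rtp4. Rsad2 and Cmpk2 are next to each other in the RefSeq gene order, as are Ifit2 and Ifit3, Oasl2 and Oasl1, and the run Parp14, Dtx3l and Parp9.

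Sequencing depth is unknown, since TPM keeps none. Libraries had 17177 to 31292 genes above 0 TPM. Ribosomal-protein transcripts took 3.64% to 5.81% of TPM in 21 libraries. The library of C50 GFP-negative cells numbered 1 stood apart at 7.81%. Counts of the set for C50 and the C50 fraction changes of Dtx3l, Lgals3bp, Irf9, Irf1 and Samd9l are therefore also given without it. These are called genes and not those that it moves most. Markers of the labelled cell type were present: 14 of 16 principal-cell markers reached 1 TPM in at least 1 library, Scnn1b and Elf5 being the exceptions. Of 12 immune-cell markers, 7 were below 1 TPM in every library, among them Itgam, Adgre1 and Lyz2, while Csf1r was at 7.05 to 21.5 TPM and Cd68 at 2.86 to 12.4 TPM. All 7 fibroblast markers were below 1 TPM in every library.

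The levels differed widely from gene to gene. The most abundant by mean over the clone libraries were B2m (beta-2-microglobulin, the light chain of MHC class I) at 202 TPM, the RNA exonuclease Isg20 at 195 TPM and Ifi27, a small membrane protein, at 142 TPM. At the other end, the antiviral GTPase Mx1 was at 0 to 0.97 TPM and the Z-nucleic-acid sensor Zbp1 at 0 to 1.16 TPM over the 22 libraries, and Gbp3 was at 0.27 to 2.03 TPM. The highest of the 10 group means was in GFP-positive C43 cells for 26 of the 41 genes and in GFP-negative C43 cells for another 3. The lowest was in one of the C1 groups for 12 (GFP-negative) and 8 (GFP-positive) genes and in one of the C50 groups for 13 (GFP-negative) and 4 (GFP-positive).

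**Figure D1:**
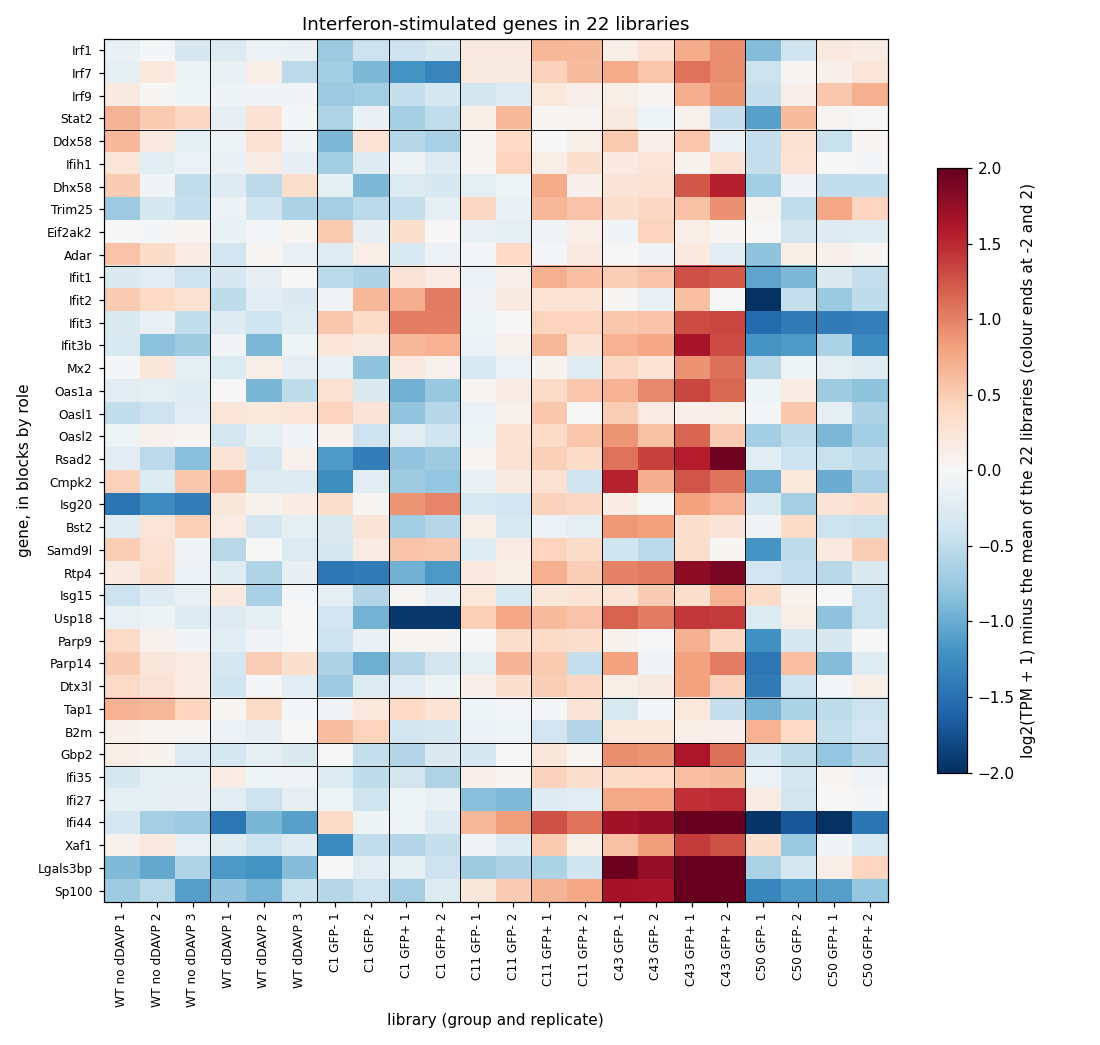
Level of the 38 genes tested in the clones, in each of the 22 libraries (columns, by group and replicate), as log2(TPM + 1) minus the gene's mean over the 22 libraries, with genes in blocks by role. The 4 C43 columns are red for most genes, deepest in the GFP-positive pair, Ifi44 and Ifit3 are blue in all 4 C50 columns, and Isg20 is dark blue only in the 3 WT libraries without dDAVP.

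The first question was whether the level of these genes differed among the clones with both fractions averaged. It did for most of them. In a moderated F-test over the 4 clone means (limma on log2(TPM + 1), Benjamini-Hochberg over all 13113 genes tested, adjusted p under 0.05) 30 of 38 genes were called, or 78.9%, where 31.6% of all genes were. By role the calls were 3 of 4 for signalling and transcription, 2 of 6 for sensing, 12 of 14 for effectors, 4 of 5 for the ISG15 and ADP-ribosylation systems, both antigen-presentation genes, Gbp2, and 6 of 6 others. Mx2, one of these effectors, passed the limit of 1 TPM only through C43, and without it 29 of 37 genes (78.4%) were called. The 8 not called were Stat2, Ddx58, Ifih1, Eif2ak2, Adar, Oasl1, Samd9l and Parp14. C43 had the highest clone mean in 30 of the 38 genes (29 of 37 without Mx2) and the lowest in none. C50 had the highest in none and the lowest in 16, C1 the lowest in 19 and C11 the lowest in 3. Over all 13113 genes C43 was highest in 20.0%, and C1, C50 and C11 were lowest in 35.7%, 26.4% and 13.5%. In bulk RNA, fewer cells of a type and less RNA per cell cannot be told apart.

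Each clone was then set against the mean of the other 3, fractions averaged. These contrasts share all 16 libraries, so a clone that is high for a gene lowers the others' values, and they are not independent of one another. C43 was higher for 24 genes and lower for none, where 11% of all genes were called, 5.8% higher and 5.16% lower. C50 was lower for 19 and higher for none (11.8% of all genes called, 7.85% lower and 3.9% higher). C1 was lower for 21 and higher for 4 (29.1% of all genes called, 14.2% lower and 14.9% higher), and C11 was higher for 6 and lower for 3 (9.02% of all genes called, 5.67% higher and 3.36% lower). The median log2 difference over the 38 genes was 0.81 in C43, -0.48 in C50, -0.45 in C1 and 0.23 in C11, beside -0.020, -0.055, -0.009 and 0.077 over all genes. Mx2 had a mean of 0.98 TPM in the clones other than C43, and without it C43 was higher for 23. Means under 1 TPM in the clone itself were those of Ifi44, Mx2 and Sp100 in C50, which was lower for 17 without these 3, and of Sp100 in C1, lower for 20 without it. All 4 libraries of C43 lay above the other 12 for 13 genes, Mx2 among them (0.724% of all genes), those of C50 lay below the other 12 for 6 (1.14%), and those of C1 for 3 (2.97%).

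**Figure D2:**
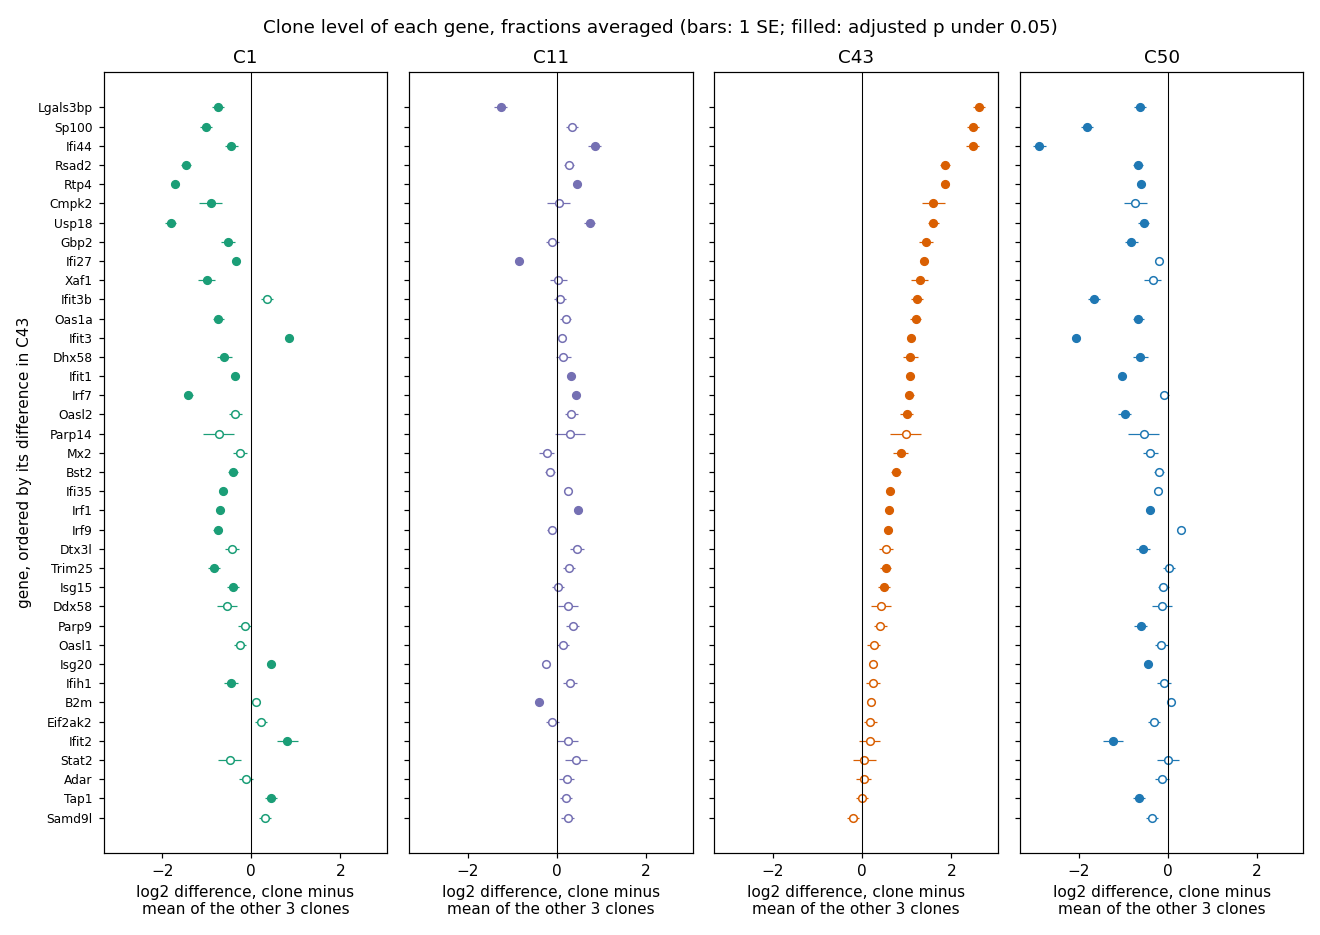
Log2 difference in TPM + 1 of each clone from the mean of the other 3 clones, fractions averaged, for the 38 genes ordered by their value in C43. Points are estimates, bars 1 standard error, and filled points have an adjusted p under 0.05: the C43 panel holds 24 filled points, all to the right of 0, and the C50 panel 19, all to the left.

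Among the transcription factors, Irf7, which drives type I interferon genes, separated C1 from C43. Irf7 in GFP-negative libraries was 8.96 and 7.55 TPM in C1, 16.96 and 17.02 TPM in C11, 25.6 and 22.3 TPM in C43 and 10.8 and 15.2 TPM in C50. In GFP-positive libraries it was 5.93 and 5.36 TPM in C1, 20.9 and 23.6 TPM in C11, 32.9 and 29.4 TPM in C43 and 16.03 and 17.7 TPM in C50. All 4 C1 libraries lay below the other 12, and the clone differences were -1.41, limma adjusted p 2.0e-06 in C1 and 1.06, limma adjusted p 4.6e-05 in C43. Irf1, a factor that binds ISRE-like elements, had a clone mean of 40.8 TPM in C1, 50.4 in C50, 77.4 in C11 and 83.8 in C43. It was higher in C43 (0.61, limma adjusted p 0.0012) and C11 (0.49, limma adjusted p 0.0062) and lower in C1 (-0.71, limma adjusted p 1.5e-04) and C50 (-0.39, limma adjusted p 0.017). Irf9, the DNA-binding subunit of ISGF3, was higher in C43 (0.58, limma adjusted p 0.0023) and lower in C1 (-0.76, limma adjusted p 1.3e-04). Stat2 had clone means from 6.18 TPM in C1 to 10.7 TPM in C11 and did not pass the test in any clone.

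Of the sensors, Dhx58 (LGP2, a helicase related to RIG-I) had clone means of 2.51 TPM in C50, 2.55 in C1, 4.33 in C11 and 8.04 in C43, and was called higher in C43 (1.08, limma adjusted p 0.002) and lower in C50 (-0.62, limma adjusted p 0.038) and C1 (-0.61, limma adjusted p 0.02). Trim25, a ubiquitin ligase of the RIG-I pathway, was lower in C1 (-0.84, limma adjusted p 7.0e-04) and higher in C43 (0.52, limma adjusted p 0.027). Ifih1 (MDA5) was lower in C1 (-0.45, limma adjusted p 0.043), but its F-test over the clones was not called (adjusted p 0.098). Some of these calls were unstable: that of Ifih1 in C1 was lost in 15 of 26 alternatives (adjusted p up to 0.19), that of Dhx58 in C50 in 14 of 26 alternatives (adjusted p up to 0.36) and that of Trim25 in C43 in 10 of 27 alternatives (adjusted p up to 0.44). For Ddx58 (RIG-I), the kinase Eif2ak2 (PKR) and the RNA editor Adar, no clone difference was called, and clone means ran from 7.15 to 12.03 TPM, 11.7 to 15.8 TPM and 17.7 to 21.4 TPM.

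The IFIT genes, whose proteins bind foreign RNA and hinder its translation, set C50 apart. Ifit3 in the GFP-negative libraries was 31.4 and 28.1 TPM in C1, 20.01 and 21.1 TPM in C11, 31.3 and 31.9 TPM in C43 and 6.65 and 7.32 TPM in C50. The GFP-positive libraries had 44.3 and 44.4 TPM in C1, 29.4 and 29.5 TPM in C11, 54.2 and 55.4 TPM in C43 and 7.47 and 7.6 TPM in C50. The 4 C50 libraries were the lowest of the 16 without overlap, and the difference of C50 from the other clones was -2.06, SE 0.064, limma adjusted p 1.5e-08. Ifit3 was higher in C43 (1.0998, limma adjusted p 1.1e-06) and in C1 (0.84, limma adjusted p 4.1e-06), and without C50 among the other clones these differences were 0.46, adjusted p 4.2e-04 in C43 and 0.17, adjusted p 0.034 in C1. Ifit3b, a close paralog of Ifit3 with which it may share reads, was 1.33 and 1.4 TPM (GFP-negative) and 2.42 and 1.18 TPM (GFP-positive) in C50, and 7.56 and 8 TPM and 15.6 and 12.1 TPM in C43. Its clone means in C1 and C11 lay between, at 6.29 and 5.33 TPM, and its C50 difference was -1.65, limma adjusted p 1.4e-05. Summed over both genes, the group means were 8.35 and 9.34 TPM in the C50 fractions and 39.4 and 68.7 TPM in those of C43, so the order of these clones did not rest on how the pair was split.

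Ifit2 and Ifit1 were also lowest in C50. Ifit2 was 6.72 and 21.2 TPM in GFP-negative and 17.4 and 20.7 TPM in GFP-positive C50 libraries, while the other 12 clone libraries ran from 26.8 to 62.4 TPM. Its C50 difference was -1.23, SE 0.23, limma adjusted p 0.0061, and its highest clone was C1 (0.81, limma adjusted p 0.023), a call lost in 4 of 27 alternatives (adjusted p up to 0.13), among them the omission of GFP-negative replicate 2 or of either GFP-positive library of C1. Ifit1 in GFP-negative libraries was 42.8 and 40.1 TPM in C1, 57.3 and 66.7 TPM in C11, 88.5 and 92.7 TPM in C43 and 29.6 and 32.96 TPM in C50. GFP-positive cells gave 74.8 and 69.97 TPM in C1, 103 and 94.7 TPM in C11, 153 and 148 TPM in C43 and 50.8 and 44.5 TPM in C50. The C50 fractions lay below the same fractions of the other clones, and the differences were -1.02, limma adjusted p 2.8e-06 in C50 and 1.07, limma adjusted p 1.9e-06 in C43. Ifit1 in C1 (-0.36) and C11 (0.31) differed less.

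Other effectors were highest in C43. Rsad2 (viperin, an enzyme that makes an antiviral nucleotide) was 10.4 and 12.8 TPM and 15.02 and 19.8 TPM in the GFP-negative and GFP-positive C43 libraries, against 1.44 and 1.07 TPM and 2.11 and 2.27 TPM in C1. In C11 it was 4.59 and 5.61 TPM and 6.46 and 5.96 TPM, and in C50 3.66 and 3.03 TPM and 2.93 and 2.77 TPM. C43 lay above and C1 below all other clone libraries, with differences of 1.86, SE 0.12, limma adjusted p 1.8e-06 in C43 and -1.47, SE 0.12, limma adjusted p 5.2e-06 in C1. Cmpk2, its neighbour and a nucleotide kinase, was also higher in C43 (1.6000, limma adjusted p 0.0024) and lower in C1 (-0.91, limma adjusted p 0.021). Rtp4, a chaperone of G-protein-coupled receptors, showed the same split. In GFP-negative libraries it was 7.62 and 7.99 TPM in C1, 25.9 and 24.9 TPM in C11, 45.7 and 47.6 TPM in C43 and 17.1 and 16.2 TPM in C50. With GFP it reached 11.1 and 9.64 TPM in C1, 37.5 and 32.1 TPM in C11, 80.6 and 87.1 TPM in C43 and 15.1 and 18.4 TPM in C50. Its 4 C43 libraries lay above and its 4 C1 libraries below all the others, with 1.85, limma adjusted p 1.1e-07 in C43 and -1.703, limma adjusted p 9.0e-08 in C1.

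Oas1a, an oligoadenylate synthetase that activates RNase L, was higher in C43 (1.203, limma adjusted p 1.1e-04) and lower in C1 (-0.74, limma adjusted p 0.001) and C50 (-0.66, limma adjusted p 0.0057). It belongs to a family of similar genes among which reads may be shared. Oasl2, an OAS-like protein, was 6.43 and 7.32 TPM and 5.32 and 6.41 TPM in the GFP-negative and GFP-positive C50 libraries, below the other 12 at 7.89 to 25.6 TPM, a difference of -0.97, limma adjusted p 0.0012. The C50 and C1 libraries were close to each other there, the highest of C50 being 7.32 TPM and the lowest of C1 7.89 TPM. Bst2 (tetherin, which holds budding virus at the membrane) was higher in C43 (0.76, limma adjusted p 0.0014). The GTPase Mx2 was at 1.97 and 1.69 TPM and 3.15 and 3.76 TPM in C43 and at 0.27 to 1.55 TPM in the other 12 clone libraries, and since it was tested only because of its C43 level, no test is given. Isg20 took another order, with clone means of 241 TPM in C1, 216 in C43, 168 in C11 and 154 in C50; it was called higher in C1 (0.44, limma adjusted p 0.0011) and lower in C50 (-0.43, limma adjusted p 0.0032). Oasl1 and Samd9l, a restrictor of translation, were not called in any clone.

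In the ISG15 system, Isg15 itself, a ubiquitin-like modifier, ran from a clone mean of 57.4 TPM in C1 to 91.9 TPM in C43. It was called lower in C1 (-0.41, limma adjusted p 0.03) and higher in C43 (0.49, limma adjusted p 0.031), and these calls were lost in 9 of 27 alternatives (adjusted p up to 0.17) and in 11 of 27 alternatives (adjusted p up to 0.18). Usp18, the protease that removes ISG15, covered a wider range. In GFP-negative libraries it was 9.21 and 5.9 TPM in C1, 17.5 and 21.8 TPM in C11, 29.2 and 26.1 TPM in C43 and 9.97 and 13.6 TPM in C50. GFP-positive cells held 2.47 and 2.48 TPM in C1, 19.6 and 18.8 TPM in C11, 34.5 and 33.9 TPM in C43 and 6.62 and 8.9 TPM in C50. It was highest in C43 without overlap and lowest in GFP-positive C1 cells, where both libraries were at 2.47 and 2.48 TPM. The differences were 1.597, limma adjusted p 1.0e-05 in C43, 0.74, limma adjusted p 0.0036 in C11, -0.53, limma adjusted p 0.018 in C50 and -1.81, limma adjusted p 1.9e-06 in C1. The C50 difference was -0.0011, adjusted p 1.00 without C43 among the other clones and was lost in 5 of 27 alternatives (adjusted p up to 1.00), and the C11 difference was 0.16, adjusted p 0.52 without C1. Parp9 and Dtx3l, which form an ADP-ribosylating ubiquitin ligase and are neighbours, were lower in C50 (-0.61 and -0.56, limma adjusted p 0.021 and 0.042). The Dtx3l call was lost in 17 of 27 alternatives (adjusted p up to 0.18), among them the omission of C11 or C43, and the Parp9 call in 4 of 27 alternatives (adjusted p up to 0.12). Parp14, the third of that run, was not called.

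Of the antigen-presentation pair, the peptide transporter Tap1 was lower in C50 (-0.65, limma adjusted p 0.0094) and higher in C1 (0.45, limma adjusted p 0.027), a call lost in 6 of 27 alternatives (adjusted p up to 0.18) that include the omission of C50 or of any C1 library but GFP-negative replicate 1, and B2m was lower in C11 (-0.398, limma adjusted p 0.0034). Gbp2, a guanylate-binding protein that acts at microbial vacuoles, was at 5.15 and 4.92 TPM and 8.89 and 5.93 TPM in C43 and at 0.88 to 2.76 TPM in the other 12 clone libraries (1.43, limma adjusted p 1.2e-04 in C43).

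The widest gaps between clones were in genes of less defined function. Ifi44 was 16.4 and 17.4 TPM in GFP-negative and 32.8 and 33.4 TPM in GFP-positive C43 libraries, and 0.39 and 0.68 TPM and 0.15 and 0.97 TPM in those of C50. In C1 it was 5.97 and 4.07 TPM and 4.13 and 3.53 TPM, and in C11 7.54 and 8.65 TPM and 12.1 and 10.5 TPM. The mean of C43 was 45.6 times that of C50, and neither clone overlapped another: the differences were 2.48, SE 0.15, limma adjusted p 1.1e-06 in C43 and -2.88, SE 0.15, limma adjusted p 3.4e-07 in C50. Sp100, a nuclear-body protein, had clone means of 10.8 TPM in C43, 2.69 in C11, 0.8 in C1 and 0.2 in C50, with 2.48, limma adjusted p 6.5e-07 in C43 and -1.82, limma adjusted p 7.9e-06 in C50. Since log2(TPM + 1) compresses levels near 1 TPM and below, these differences understate the ratios.

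Lgals3bp, a secreted glycoprotein that binds galectins, was high in C43 alone. In its GFP-negative libraries it was 21.8 and 18.8 TPM and in its GFP-positive libraries 31.1 and 49.7 TPM, while the other 12 clone libraries were at 2.56 to 6.84 TPM. The C43 difference was 2.62, SE 0.14, limma adjusted p 4.3e-07, and the lowest clone was C11 (-1.26, limma adjusted p 1.7e-04). Ifi27 in GFP-negative libraries was 111 and 89.8 TPM in C1, 65.9 and 63.8 TPM in C11, 202 and 203 TPM in C43 and 131 and 91.01 TPM in C50. Its level in GFP-positive libraries was 111 and 107 TPM in C1, 98.3 and 101 TPM in C11, 328 and 335 TPM in C43 and 118 and 116 TPM in C50. Its C43 libraries lay above the rest (1.39, limma adjusted p 1.9e-06), and C11 was called lower (-0.85, limma adjusted p 1.2e-04). Xaf1, a pro-apoptotic antagonist of XIAP, was highest in C43 (1.29, limma adjusted p 0.0012) and lower in C1 (-1.002, limma adjusted p 0.0022). Ifi35 followed with 0.62 in C43 and -0.65 in C1 (limma adjusted p 3.0e-04 and 7.5e-05).

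**Figure D3:**
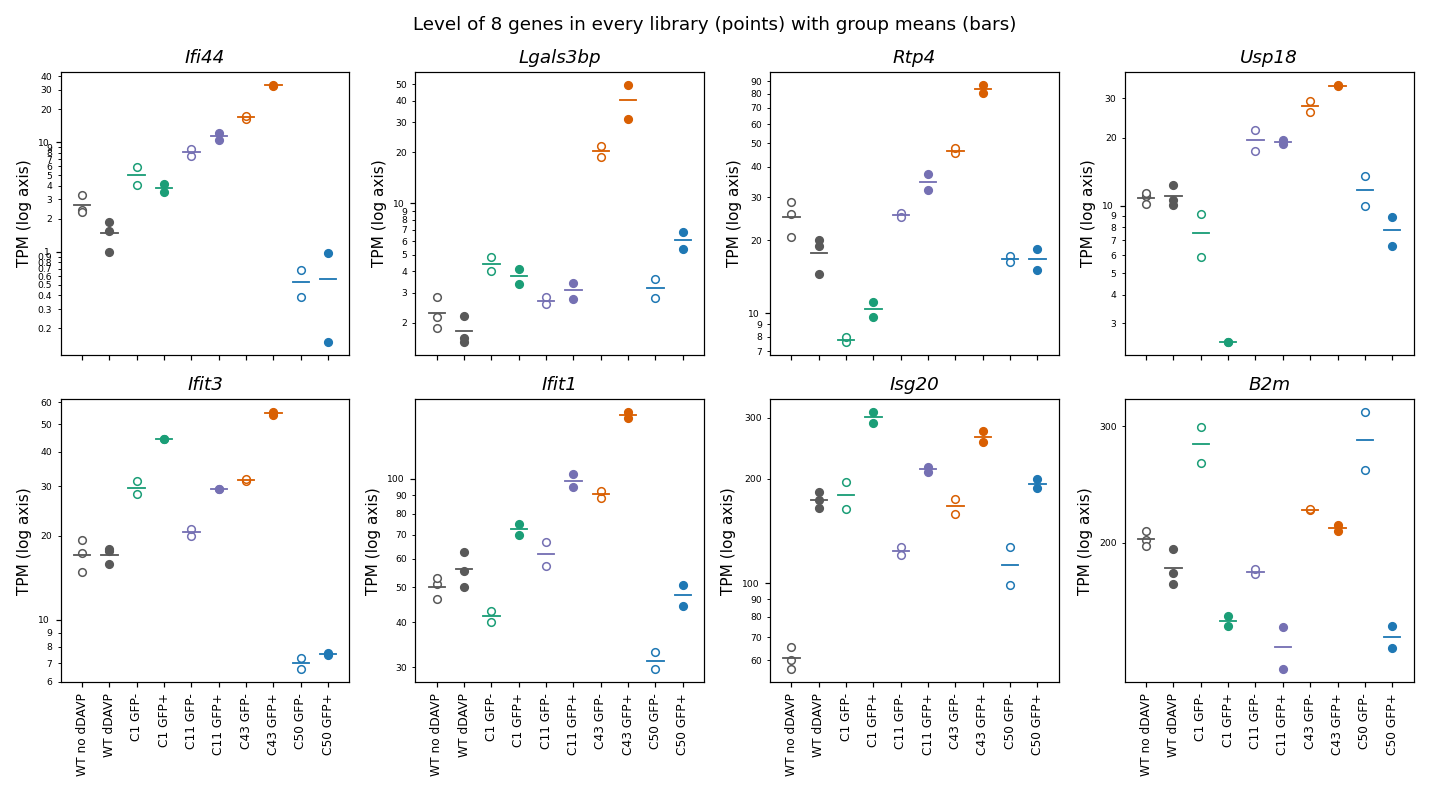
Level in TPM (log axis) of 8 genes in every library (points, open for WT without dDAVP and GFP-negative, filled for WT with dDAVP and GFP-positive) with group means as bars. Ifi44, Lgals3bp, Rtp4 and Usp18 are highest in C43, Ifi44 and Ifit3 lowest in C50, Ifit1 and Isg20 are higher in the GFP-positive fraction of every clone, and B2m is lower there.

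The clone contrasts depended on which clones stood as reference. Without C43 among the other clones, C50 was lower for 9 genes and higher for 1 (12.5% of all genes called), and its Lgals3bp and Rtp4 differences changed sign, to 0.30 and 0.013. Without GFP-negative replicate 1 of C50 the C50 count was 20 (19 lower, 1 higher, 13.6% of all genes called), and without its GFP-positive replicate 1 it was 12, all lower (6.21%). C43 was called higher for 22 to 29 genes when any 1 library was left out, the 29 standing in fits without either GFP-negative library of C50 that called 27.2% and 20% of all genes. C1 was called for 16 genes without its GFP-positive replicate 1 (19.1% of all genes) and for 13 without C43 among the other clones (23.7%), where Ifi44, Lgals3bp and Ifi27 turned to 0.42, 0.14 and 0.13. C11 was called for 14 genes without GFP-negative replicate 2 of C50 (29.1% of all genes), for 15 without C43 (11.3%) and for 5 without C1 (4.02%), where Irf7 and Rtp4 turned to -0.046 and -0.13. Without C50, the C11 differences of Ifi44 and Ifit1 turned to -0.12 and -0.034. Among the calls followed singly, leaving out C43 ended those of Dhx58, Dtx3l, Gbp2, Irf1, Oas1a, Parp9, Rsad2 and Usp18 in C50, of Bst2, Cmpk2, Dhx58, Gbp2, Ifih1, Ifit1, Isg15, Oas1a, Sp100 and Xaf1 in C1 and of Lgals3bp in C11. Leaving out C1 ended those of Ifit1, Irf1 and Usp18 in C11, of Irf9, Isg15 and Trim25 in C43 and of Tap1 in C50. Leaving out C11 ended those of Dhx58, Dtx3l, Irf1, Parp9 and Usp18 in C50 and of Ifi44 and Ifih1 in C1, and leaving out C50 ended that of Tap1 in C1. Immune-marker transcripts summed to 21.5 to 32.7 TPM in the C43 libraries, 20.0 to 27.9 TPM in C11, 16.8 to 26.5 TPM in C1 and 12.3 to 21.5 TPM in C50, mostly Csf1r and Cd68, with Itgam at 0 in 20 of 22 libraries. Their part in the clone differences was not tested.

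Unsorted WT cells were not tested against the sorted clones, because clone and sorting cannot be told apart there. The 6 WT libraries also pool 3 without and 3 with dDAVP, while all clone libraries had dDAVP. These WT groups did not overlap for Ifi44 (2.29 to 3.29 TPM without, 0.99 to 1.87 TPM with) or Rtp4 (20.7 to 28.6 TPM without, 14.6 to 19.9 TPM with). Side by side, the 6 WT libraries had Ifi44 at 0.99 to 3.29 TPM (median 2.08), Lgals3bp at 1.54 to 2.83 TPM (median 2.01) and Sp100 at 0.16 to 0.83 TPM (median 0.48), all under every C43 library. Ifit3 was at 14.8 to 19.2 TPM (median 17.4) in WT, above all 4 C50 libraries and below all 4 C43 libraries. Rtp4 was at 14.6 to 28.6 TPM (median 20.3) in WT, above every C1 library. Usp18 at 10.1 to 12.3 TPM (median 10.8) lay between the ranges of C1 and C11.

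The second question was whether the genes differed between GFP-positive and GFP-negative cells, all under dDAVP. Over the 4 clones, with clone as a covariate, 15 of 38 genes were called, of which GFP-positive cells had 13 higher and 2 lower. Over all genes 35.3% were called, 12.1% higher and 23.2% lower, so the genes' total share, 39.5%, was near the background and their split leaned the other way. The median log2 change of the 38 was 0.27 beside -0.063 over all genes. By role the calls were Irf1 and Irf9 among 4 signalling genes, Trim25 among 6 sensors, 7 of 14 effectors (6 higher, 1 lower), Parp9 and Dtx3l of 5 in the ISG15 and ADP-ribosylation systems, B2m of the antigen-presentation pair, and Ifi27 and Sp100 among 6 others. Both GFP-positive libraries lay above both GFP-negative ones in each of the 4 clones for 8 genes (6.72% of all genes), Irf1, Irf9, Trim25, Ifit1, Ifit3, Isg20, Samd9l and Dtx3l. They lay below in each clone for B2m (12.2% of all genes). Without GFP-negative replicate 1 of C50 the count was 19, 16 higher and 3 lower, in a fit that called 46% of all genes.

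Isg20 rose most. In GFP-negative libraries it was 197 and 164 TPM in C1, 127 and 120.4 TPM in C11, 175 and 159 TPM in C43 and 127 and 99.01 TPM in C50. GFP-positive libraries gave 291 and 312 TPM in C1, 217 and 209.5 TPM in C11, 275 and 255 TPM in C43 and 188 and 199.7 TPM in C50. The fractions did not overlap in any clone, and the change over the clones was 0.74, SE 0.062, limma adjusted p 6.8e-07. Ifit1, whose values by library are given above, rose by a similar amount with no overlap within a clone (0.69, SE 0.059, limma adjusted p 8.0e-07). Ifit1 and Isg20 were called in each of the 4 single-clone comparisons, which share 1 estimate of the spread. With the spread from the 4 C50 libraries alone, neither was called in C50.

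Samd9l was 45.3 and 64.3 TPM in C1, 48.2 and 64.3 TPM in C11, 43.3 and 38.9 TPM in C43 and 24.6 and 39.6 TPM in C50 in GFP-negative libraries. It was 84.9 and 83.2 TPM in C1, 78.3 and 74.02 TPM in C11, 72.2 and 57.8 TPM in C43 and 65.1 and 81.04 TPM in C50 in GFP-positive libraries, a change of 0.73, SE 0.13, limma adjusted p 5.3e-04. Both C50 GFP-negative libraries were below those of the other clones except C43 replicate 2. Irf9 in GFP-negative libraries was 32.7 and 33.5 TPM in C1, 42.3 and 45.6 TPM in C11, 59.6 and 56.2 TPM in C43 and 39.7 and 59.1 TPM in C50. Its GFP-positive libraries were at 39.4 and 42.6 TPM in C1, 63.2 and 58.9 TPM in C11, 91.2 and 102 TPM in C43 and 80.2 and 90.6 TPM in C50, above the negative pair in every clone (0.57, SE 0.091, limma adjusted p 2.2e-04). Irf1 rose with it, by 0.53, limma adjusted p 4.4e-04, from 33.97 and 41.6 TPM in C1, 64.8 and 64.97 TPM in C11, 61.98 and 69.6 TPM in C43 and 30.6 and 42.6 TPM in C50 in GFP-negative libraries. In GFP-positive libraries Irf1 was 42.3 and 45.3 TPM in C1, 90.3 and 89.7 TPM in C11, 95.1 and 108 TPM in C43 and 65.3 and 62.9 TPM in C50. Further rises were Dtx3l (0.505), Trim25 (0.49), Ifit3 (0.48), Ifit3b (0.48), Sp100 (0.42), Parp9 (0.41), Rtp4 (0.41) and Ifi27 (0.39), all log2 changes with adjusted p under 0.05 in limma. Without C43 the calls of Dtx3l, Ifi27, Ifit3b, Parp9, Rtp4 and Sp100 were lost, and the Sp100 call was lost in 12 of 27 alternatives (adjusted p up to 0.32).

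The 2 falls were B2m and Bst2. B2m was 299 and 264 TPM in C1, 179 and 182 TPM in C11, 224 and 225 TPM in C43 and 315 and 257 TPM in C50 in GFP-negative libraries. In GFP-positive libraries it was 149.6 and 155 TPM in C1, 149 and 129 TPM in C11, 213 and 208 TPM in C43 and 139 and 149 TPM in C50. The fall was -0.58, SE 0.11, limma adjusted p 8.3e-04, and the log2 change within a clone was -0.88 for C1 and -0.98 for C50, both called, and -0.38 for C11 and -0.092 for C43, not called. Bst2 fell by -0.46, limma adjusted p 0.004. Of the genes that work with B2m in antigen presentation, the MHC class I heavy chains went different ways: H2-K1 fell (-0.79, limma adjusted p 1.5e-05), H2-T23 rose (0.45, limma adjusted p 0.0042) and H2-D1 changed by 0.013 and was not called. Tap1 changed by 0.199 and was not called (adjusted p 0.18). Summed immune-marker transcripts were lower in GFP-positive than in GFP-negative cells on average in each clone, for example 32.4 against 21.7 TPM in C43 and 19.5 against 13.2 TPM in C50, and the summed intercalated-cell markers were higher, 26.8 against 83.2 TPM in C50. That sum was mostly the proton-pump subunit Atp6v1b1 (23.4 and 73.9 TPM in C50). Of the 8 markers 5, Foxi1, Slc4a1, Slc26a4, Atp6v1g3 and Atp6v0d2, were below 1 TPM in every library, Slc4a9 was at 2.42 and 8.5 TPM in C50, and Hmx2 was at 0.77 and 0.485 TPM. Their part in these changes was not tested.

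**Figure D4:**
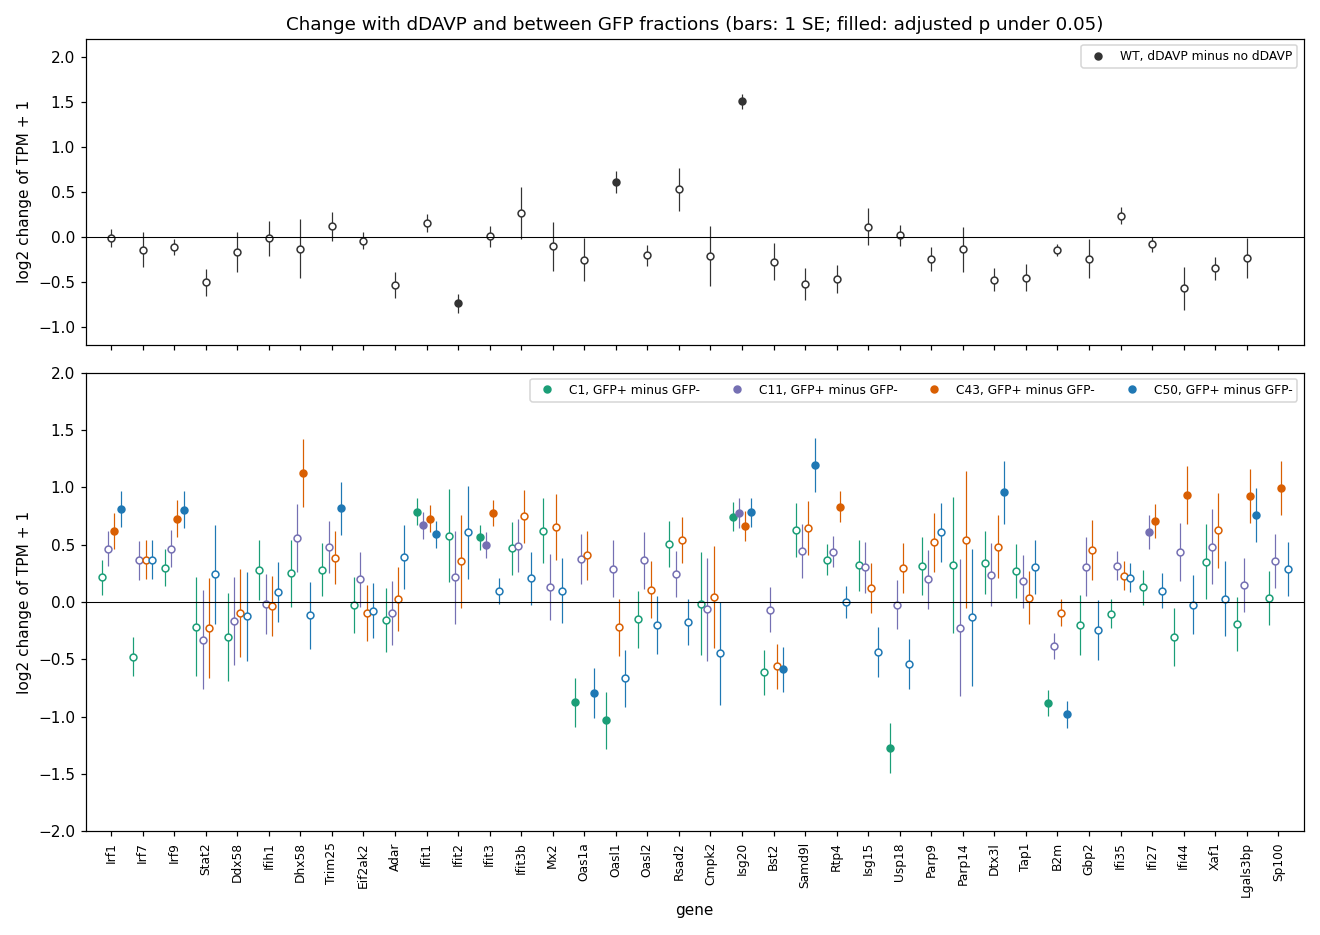
Log2 change in TPM + 1 with dDAVP in WT cells (upper panel) and of GFP-positive over GFP-negative cells in each clone (lower panel) for every gene tested. Points are estimates, bars 1 standard error, and filled points have an adjusted p under 0.05; Isg20 is filled in all 5 comparisons and Ifit1 in the 4 clones, while B2m, Oas1a, Oasl1, Bst2 and Usp18 hold the filled points below 0 in the clones.

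Within single clones the calls differed in number and direction. These 4 comparisons share 1 estimate of the spread and no libraries. In C1, 7 of 38 genes were called, 3 higher and 4 lower (7.22% of all genes, 2.31% higher and 4.91% lower). The rises were Ifit1 (0.79, limma adjusted p 0.0016), Isg20 (0.74, limma adjusted p 0.0047) and Ifit3 (0.56, limma adjusted p 0.01). The falls were led by Usp18, from 9.21 and 5.9 TPM to 2.47 and 2.48 TPM (-1.27, limma adjusted p 0.0042). Oasl1 went from 11.4 and 9.84 TPM to 4.28 and 5.1 TPM (-1.03, limma adjusted p 0.028). Oas1a went from 7 and 4.29 TPM to 2.3 and 2.81 TPM (-0.88, limma adjusted p 0.032), and B2m also fell (-0.88, limma adjusted p 7.7e-04). Each of these 4 falls left the 2 fractions without overlap, which their calls made likely. The Oas1a call was lost in 13 of 25 alternatives (adjusted p up to 0.27) and the Oasl1 call in 6 of 25 alternatives (adjusted p up to 0.20). Without GFP-positive replicate 2 of C1 the count was 3 (3.04% of all genes called) and without its replicate 1 it was 4 (2.87%). It was 10 without either GFP-negative library of C50, which changes only the shared spread and called 15.9% and 16% of all genes.

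In C11, 4 genes were called, all higher (7.94% of all genes, 2.23% higher and 5.7% lower). They were Isg20 (0.78, limma adjusted p 0.0044), Ifit1 (0.67, limma adjusted p 0.0056), Ifit3 (0.497, limma adjusted p 0.02) and Ifi27, which went from 65.9 and 63.8 TPM to 98.3 and 101 TPM (0.61, limma adjusted p 0.03). The Ifi27 call was lost in 14 of 25 alternatives (adjusted p up to 0.17). The count fell to 1 without GFP-negative replicate 1 or GFP-positive replicate 1 of C11 and to 2 without either replicate 2, in fits that called 2.42% to 2.83% of all genes. It was 8 without either GFP-negative library of C50, where 17.7% and 17.8% were called.

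In C43, 11 genes were called, all higher (16.3% of all genes, 4.29% higher and 12% lower). In all 11 both GFP-positive libraries lay above both GFP-negative ones, which the calls made likely and which adds no separate support. Ifi44 (0.93, limma adjusted p 0.029), Lgals3bp (0.92, limma adjusted p 0.021) and Rtp4 (0.83, limma adjusted p 0.0019) had the largest changes among called genes with a mean of at least 5 TPM, followed by Ifit3 (0.78, limma adjusted p 8.5e-04), Ifit1 (0.73, limma adjusted p 0.0017) and Irf9 (0.72, limma adjusted p 0.011). At lower levels, Dhx58 went from 4.59 and 4.73 TPM to 10.1 and 12.7 TPM (1.13, limma adjusted p 0.024) and Sp100 from 6.91 and 6.8 TPM to 13.6 and 15.7 TPM (0.99, limma adjusted p 0.015). The others were Ifi27 (0.71), Isg20 (0.66) and Irf1 (0.62), while Ifit3b changed by 0.75 and was not called (adjusted p 0.05). The calls of Ifi44 and Lgals3bp were lost in 6 of 25 alternatives (adjusted p up to 0.25) and 5 of 25 alternatives (adjusted p up to 0.16). The count was 4 without GFP-negative replicate 1 or GFP-positive replicate 2 of C43 (6.58% and 8.86% of all genes called) and 5 without its GFP-negative replicate 2 (9.09%). It was 15 without either GFP-negative library of C50, where 29.6% and 29.8% of all genes were called.

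In C50, 11 genes were called, 8 higher and 3 lower (26.6% of all genes, 12.8% higher and 13.8% lower), a share close to the background. With the spread estimated from the 4 C50 libraries alone, none of the 11 was called. That fit rests on 2 libraries per fraction and its share of all genes called is not given here. Its outcome therefore does not single out these 11 genes. Samd9l (1.19, limma adjusted p 0.004) and Dtx3l, from 4.06 and 8.97 TPM to 12.1 and 13.5 TPM (0.96, limma adjusted p 0.025), had the largest rises among the called genes. Trim25 went from 25.6 and 17.02 TPM to 42.4 and 33.3 TPM (0.82, limma adjusted p 0.023), and Irf1 (0.81, limma adjusted p 0.0032) and Irf9 (0.804, limma adjusted p 0.0042) rose as well. The other rises were Isg20 (0.78), Lgals3bp (0.76) and Ifit1 (0.59). B2m (-0.98, limma adjusted p 1.4e-04), Oas1a (-0.79) and Bst2 (-0.59) fell. The least stable calls were those of Bst2, lost in 14 of 25 alternatives (adjusted p up to 0.30), Lgals3bp, in 7 of 25 alternatives (adjusted p up to 0.31), Trim25, in 6 of 25 alternatives (adjusted p up to 0.26), Dtx3l, in 5 of 25 alternatives (adjusted p up to 0.31), and Oas1a, in 5 of 25 alternatives (adjusted p up to 0.28). The GFP-negative libraries of C50 differed from each other in several genes, with Samd9l at 24.6 and 39.6 TPM, Dtx3l at 4.06 and 8.97 TPM and Stat2 at 3.67 and 14.3 TPM in replicates 1 and 2. Without replicate 1, the library with the high ribosomal share, 12 genes were called (7 higher, 5 lower, 23.7% of all genes), and without replicate 2, 14 were (52.2%). Without replicate 1 the changes were 0.47, adjusted p 0.14 for Dtx3l, 0.61, adjusted p 0.14 for Lgals3bp, neither called, 0.52, adjusted p 0.0085 for Irf9, 0.58, adjusted p 0.01 for Irf1 and 0.86, adjusted p 0.022 for Samd9l. Without GFP-positive replicate 1 the count was 6 (14.4%) and without GFP-positive replicate 2 it was 7 (13.7%).

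Whether C50 responds differently was tested as such. The difference between its fraction change and the mean change of the other 3 clones was called for 0 of 38 genes in limma, where 0.93% of all genes were called, and 9 were at an unadjusted p under 0.05 (23.2% of all genes). The lowest adjusted p, 0.085, was shared by B2m, with a difference of -0.53 (SE 0.13), and Ifit3, with -0.51 (SE 0.13). Ifit3 changed by 0.097 in C50 (adjusted p 0.55), beside 0.56, 0.497 and 0.78 in C1, C11 and C43. The result turned on 1 library: without GFP-negative replicate 2 of C50 the count was 16, in a fit that called 46.9% of all genes, and without replicate 1 it was 0. With median-ratio scaling or quantile normalization 1 gene, Ifit3, was called. An F-test over all 4 clones' fraction changes likewise called 0 of 38 in limma (0.869% of all genes, 10 genes at an unadjusted p under 0.05, beside 12.9% of all genes), and called 3, B2m, Oas1a and Usp18, without C50 GFP-negative replicate 1 (2.49% of all genes) and 13 without replicate 2 (38.6%). A p above the threshold does not show that the clones changed alike.

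The third comparison asked what dDAVP did in unsorted WT cells. Of 37 genes tested 3 were called, 2 higher and 1 lower (8.88% of all 13494 genes tested, 2.37% higher and 6.51% lower), and 12 were at an unadjusted p under 0.05 (31% of all genes). Isg20 was 56.5, 65.7 and 60.03 TPM in the 3 libraries without dDAVP and 184, 165 and 175 TPM in the 3 with it, a rise of 1.51, SE 0.083, limma adjusted p 1.8e-04. Oasl1 was 5.49, 5.8 and 6.8 TPM without and 9.77, 9.52 and 9.81 TPM with dDAVP, a rise of 0.61, SE 0.12, limma adjusted p 0.029. For Ifit2 the values were 43.1, 39.9 and 37.02 TPM without and 20.8, 25.7 and 24.4 TPM with dDAVP, a fall of -0.74, SE 0.11, limma adjusted p 0.011. In all 3 genes the groups did not overlap, which their calls made likely. The Oasl1 call was lost in 7 of 14 alternatives (adjusted p up to 0.15), among them the replicate block and the omission of any 1 library other than dDAVP replicate 2, and the Ifit2 call in 1 of 14 alternatives (adjusted p up to 0.087), the replicate block.

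The median change of the 37 genes was -0.14, beside -0.16 over all genes. Median-ratio scaling moved the all-gene median to 0.00027, and changes are to be read against that shift. Most of the set did not pass the test: Isg15 was 49.5, 55.8 and 60.01 TPM without and 76.2, 42.02 and 65.3 TPM with dDAVP, and Irf9 was 61.9, 55.8 and 51.5 and 50.9, 52.4 and 52.8 TPM, the groups overlapping in both. Ifit1 changed by 0.15 (adjusted p 0.35), and B2m by -0.15 (adjusted p 0.20). Without dDAVP replicate 2 the count was 7 (2 higher, 5 lower), in a fit that called 15.2% of all genes, and without any other 1 library it was 2, in fits that called 2.31% to 3.36%. Isg20 was the only gene of the set called in the WT dDAVP comparison and in all 4 clones, while Oasl1 was called higher with dDAVP and lower between fractions in C1. These are separate libraries, and the difference between the comparisons was not tested.

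The genes upstream were taken from a list of 32 ligands, receptors, kinases, factors, adaptors and inhibitors. All 9 interferon genes in it (Ifnb1, Ifna1, Ifna2, Ifna4, Ifne, Ifnk, Ifnl2, Ifnl3 and Ifng) had group means under 1 TPM in all 10 groups, the highest single value being 1.37 TPM for Ifnb1. The receptor chains Ifnar1 (18.4 to 64.6 TPM) and Ifnar2 (74.3 to 125 TPM), the kinases Jak1 (24.6 to 68.7 TPM) and Tyk2 (4.88 to 28.6 TPM) and the factor Irf3 (74.4 to 119.9 TPM) were expressed in every library.

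Of the 23 upstream genes tested between clones, 4 (17.4%) were called in C43 (3 higher, 1 lower), where 11% of all genes were, and 4 (17.4%) in C50 (all lower), where 11.8% were. In C1 it was 5 (21.7%, 3 higher and 2 lower), under the 29.1% of all genes, and in C11 2 (8.7%, both higher), beside 9.02%. The receptor chain Ifnar2 was lower in C50 (-0.43, limma adjusted p 0.0011), and Ifnar1 there was -0.56 (adjusted p 0.07, not called). Ifnar1 was 18.4 TPM in GFP-negative replicate 1 of C50, the library with the high ribosomal share, and 37.9 to 46.4 TPM in its other libraries. That library also held the lowest Jak1 and Tyk2 values, while Ifnar2 was at 74.3 to 82.9 TPM in all C50 libraries. The upstream C50 count is not given without it. Il10rb, a chain of the type III receptor, was lower in C50 (-0.42) and higher in C43 (0.29), and Ifngr2, of the interferon-gamma receptor, likewise (-0.43 and 0.41), each with adjusted p under 0.05. Ifngr1 was lower in C1 (-0.49). Sting1, the adaptor of cytosolic DNA sensing, was called in every clone, higher in C11 (1.0005, limma adjusted p 1.7e-06) and C43 (0.38) and lower in C1 (-0.84) and C50 (-0.54). Its DNA sensor Cgas was higher in C1 (0.73). Irf8 was higher in C11 (0.64) and lower in C43 (-0.57). Irf5 (0.68) and the phosphatase Ptpn6 (0.29) were higher in C1, but the F-test over the clones did not call Ptpn6 (adjusted p 0.13). Jak1, Tyk2 and Irf3 were not called in any clone.

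Between fractions over the 4 clones, 7 of the 23 upstream genes were called, 3 higher and 4 lower, a share of 30.4% beside 35.3% of all genes. Sting1 (0.52, limma adjusted p 2.2e-04), the receptor chain Il10rb (0.34) and the RNA-sensing adaptor Mavs (0.34) were higher in GFP-positive cells. Irf5 (-1.37), the feedback inhibitor Socs3 (-0.66), Ifngr1 (-0.31) and Ptpn6 (-0.24) were lower. With dDAVP in WT cells 3 of 23 (13%) were called, where 8.88% of all genes were, Sting1 higher (0.45, limma adjusted p 0.041) and Ifnlr1 (-0.59) and Socs3 (-0.74) lower. That count was 7 with a covariate for genes detected (18.9% of all genes called). It was 5 with a pseudocount of 0.1 (9.96%) or without dDAVP replicate 2 (15.2%). With median-ratio scaling (5.61%), quantile normalization (6%) or no trend (5.12%) it was 1. With the replicate block (0.904%), with any TPM above 0 (1.16%) or without any other 1 library (2.31% to 3.36%) it was 0. Of 11 tested genes of class I antigen presentation beyond B2m and Tap1, 5 were called between fractions: H2-T23 (0.45), Tap2 (0.42) and Psmb10 (0.28) higher, H2-K1 (-0.79) and H2-Q4 (-0.34) lower. The H2 genes resemble one another, and their split is uncertain. The immunoproteasome subunit Psmb9 was higher in C43 (0.92, limma adjusted p 0.0021) and lower in C50 (-1.31, limma adjusted p 1.4e-04).

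Returning to the printed promoters, genes with and without an ISRE match are given side by side. In C43, 8 of 13 tested genes with a match were called higher, with a median difference of 0.76, and 11 of 18 without one, with a median of 0.59. In C50, 6 of 13 with a match and 9 of 18 without one were called lower, with medians of -0.30 and -0.41. Between fractions 3 of 13 with a match were called higher and 2 lower (median 0.08), and 7 of 18 without one higher and none lower (median 0.39). Both genes that fell between fractions, B2m and Bst2, hold an ISRE match, and so does Ifit1, which rose in every clone. Isg20, which also rose in every clone and with dDAVP, holds the GAS match shown and no ISRE match in its window. These are descriptions of letters in these windows, and no test was made.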

How the data were processed

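RNA of 22 libraries was made into cDNA with the SMART-Seq HT kit and into libraries with Nextera XT, per the labels' protocols. STAR and RSEM are named in the submitters' processing notes, and the genome build and annotation are not given in the sources used here. The authors deposited TPM per gene and library in a table of 55415 lines. Lines sharing a symbol (980 lines of 79 symbols) were summed here, which left 54514 entries. No strand is recorded, so reads of overlapping genes cannot be told apart. Depth is unknown, and no interval from counts was computed.

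Groups came from the sample titles. Linear models were fitted in R 4.3.3 with limma 3.58.1 to log2(TPM + 1), a pseudocount of 1 that understates changes at low TPM, over genes with a mean of at least 1 TPM in the libraries of the comparison. Moderation used a mean-variance trend, tests were two-sided, and p-values were adjusted by Benjamini-Hochberg over all genes tested, with calls at an adjusted p under 0.05. The WT comparison used 6 libraries. The clone comparisons used 16, with a separate mean for each fraction of each clone and 1 common spread, or clone as a covariate over the 4 clones. Scripts were tested on simulated data. Levels are described by library mainly where a called gene was among the 6 with the largest change at a mean of at least 5 TPM in a comparison. Outside that rule, library values are also given for some genes. Among them are Mx2, Gbp2, Dhx58 and Sp100, with lower means, and the uncalled Isg15 and Irf9 in WT and Stat2 in C50. One gene first meant for the upstream list was left out of it and is not reported here.

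Alternatives were a pseudocount of 0.1, filters at 5 TPM or any TPM above 0, median-ratio and quantile scaling, no trend, the replicate number as a block, a covariate for genes detected, a clone's own libraries, and leaving out each library or clone. The genes and lists were chosen with earlier results of these data known. The C1, C11 and C43 level contrasts, the F-test of fraction changes, the detected-gene covariate in WT and leaving out clones in the level contrasts were added after seeing the data. Figures were drawn with matplotlib 3.10.9 and promoters searched with pandas 2.3.3.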

Additional observations from a re-analysis of the deposited data

How the results depend on the processing

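Each count of called genes was recomputed under the alternatives in which it could be fitted, 35 settings in all. Of 128 single-gene differences, 57 kept direction and call in every alternative, 68 fell below the threshold in at least 1 and 9 changed sign in at least 1. The sign changes all came from leaving out a clone: without C43 they were Lgals3bp (0.30) and Rtp4 (0.013) in the C50 contrast and Ifi27 (0.13), Ifi44 (0.42) and Lgals3bp (0.14) in the C1 contrast, and in the C11 contrast Irf7 (-0.046) and Rtp4 (-0.13) without C1 and Ifi44 (-0.12) and Ifit1 (-0.034) without C50. Counts without C43 were 10 for C50, 13 for C1 and 15 for C11, and 5 for C11 without C1. With a covariate for genes detected, dDAVP called 7 (18.9% of the 37, as of all genes in that fit). Any TPM above 0 gave 7 in C43 and 6 in C50 between fractions. The 4 libraries of C50 alone gave 0, in a fit that rests on 2 libraries per fraction. Counts in this section are to be read against the share of all genes called in the same fit, which moved as well. Over the 4 clones that share was 35.3% as first fitted and 9.24% with any TPM above 0. Quantile normalization gave 7 in C11, 17 in C43, 1 for the C50 fraction difference and 3 for the F-test of fraction changes. Median-ratio scaling gave 1 and 2 for these last tests, and a filter at 5 TPM gave 1 for the F-test. Leaving out 1 library gave 2 to 7 for dDAVP, 14 to 19 for the fractions over 4 clones, 3 to 10 in C1, 1 to 8 in C11, 4 to 15 in C43 and 6 to 14 in C50. The C50 fraction difference ranged from 0 to 16, the F-test of fraction changes from 0 to 13 and the F-test of clone levels from 28 to 34. Level contrasts ranged from 12 to 23 in C50, 16 to 30 in C1, 7 to 14 in C11 and 22 to 29 in C43. The cause of these shifts was not tested. With the replicate block, dDAVP called 1 gene (Isg20), C1 4, C11 2, C43 11, C50 9 and the fractions over 4 clones 15. Whether same-numbered libraries were paired was not decided. Their correlations were -0.21, -0.025 and -0.11 in WT and 0.054, 0.015, 0.20 and 0.083 in C1, C11, C43 and C50. Each clone gave only 1 such value, from 2 libraries per fraction, which is too few to exclude pairing. Genes above 0 TPM in GFP-negative and GFP-positive libraries of C43 were 30855 and 29973 for number 1 and 19002 and 19556 for number 2. The order by number was likewise the same in both fractions of C1 and of C50, but it differed between the groups of C11 and of WT. TPM keep no depth, so a limit from read counts cannot be given, and with 2 libraries per fraction the spread rests on few values.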
